A study of Homo sapiens with 2 samples.

Results

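Vitamin A acts in epithelial cells through its acid form, and 9 genes of that pathway were followed here after the EGFR was inhibited in H322c cells. They were the retinaldehyde dehydrogenases ALDH1A1, ALDH1A2 and ALDH1A3, the retinoic acid binding protein CRABP2, the retinaldehyde reductase DHRS3, the retinoic acid receptors RARA, RARB and RARG, and the retinoic acid responsive gene RARRES1. The members were taken by name, as every probe set annotated with one of these genes alone, which gave 23 probe sets of 9 genes among 19775 genes on the array. H322c is an established human NSCLC cell line. Cells were plated 24 hrs before treatment, in RPMI with 10% FBS, and received either 1 µM gefitinib, a small molecule inhibitor of the EGFR kinase, or 0.1% DMSO as the vehicle control. Total RNA was collected after 4 days and hybridized to Affymetrix U133 Plus 2.0 arrays. There was 1 array per condition, so no replicate error, p-value or test of a difference could be obtained, and every value describes these 2 arrays of a single cell line.

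Retinol enters cells partly through a membrane receptor and is stored as an ester. Retinol dehydrogenases oxidize it reversibly to retinaldehyde, and retinaldehyde dehydrogenases oxidize that irreversibly to retinoic acid. Retinoic acid is carried by CRABP2 to nuclear receptors of the RAR class, which bind DNA as partners of RXR receptors, and it is broken down by CYP26 enzymes. In airway epithelium, vitamin A is known for maintaining mucous and ciliated cells, and squamous cells replace them when it is lacking. Serum carries retinol, and neither retinol nor retinoic acid was measured in these cells or their medium.

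The deposited values were MAS5 signals on a linear scale, in arbitrary units. Signals under 100 were set to 100, and a probe set was called measured where it reached this floor on at least 1 array. A ratio whose lower signal lay under the floor is only a bound, marked by the words at least. A gene with several measured probe sets was represented by the brightest over both arrays, and differences were counted from 2-fold. Signals of different probe sets depend on their probes and were not compared with each other.

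Of the 9 members, 6 were measured and 3, ALDH1A2, RARB and RARRES1, were below the floor on both arrays at all of their probe sets. On the gefitinib array, ALDH1A1 was higher by at least 3.39-fold, ALDH1A3 was 2.44-fold lower and CRABP2 was 2.49-fold lower. DHRS3 was 1.58-fold higher, and the receptors RARA and RARG lay close to a ratio of 1. Thus 1 of 6 measured members was at least 2-fold higher, against 13.3% of the 11223 measured genes, and 2 of 6 were at least 2-fold lower, against 6.20%. The members were chosen with earlier results of these data known, so these shares are no independent comparison with all genes. The single higher member, ALDH1A1, reached the floor only on the gefitinib array. The median log2 ratio of the 6 measured members was -0.04, and that of all measured genes was 0.12.

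The share of genes on each side depended on how the arrays were scaled. Of all measured genes, 9.42% were at least 2-fold higher and 9.25% lower with scaling to the bacterial spike-ins, and 17.9% and 4.34% with scaling to GAPDH. The median log2 ratio of all measured genes was -0.07 and 0.28 under these scalings and 0.24 with centring on the normalization-control probe sets. ALDH1A1 stayed at least 2-fold higher, and ALDH1A3 and CRABP2 at least 2-fold lower, under each of the 5 other scalings tried. No replicate gave the spread of a measurement, so the SD among log2 ratios of probe sets that share a gene, 0.58 over 5432 genes, stands beside the values instead. The spread between cultures remains unknown.

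**Figure D1:**
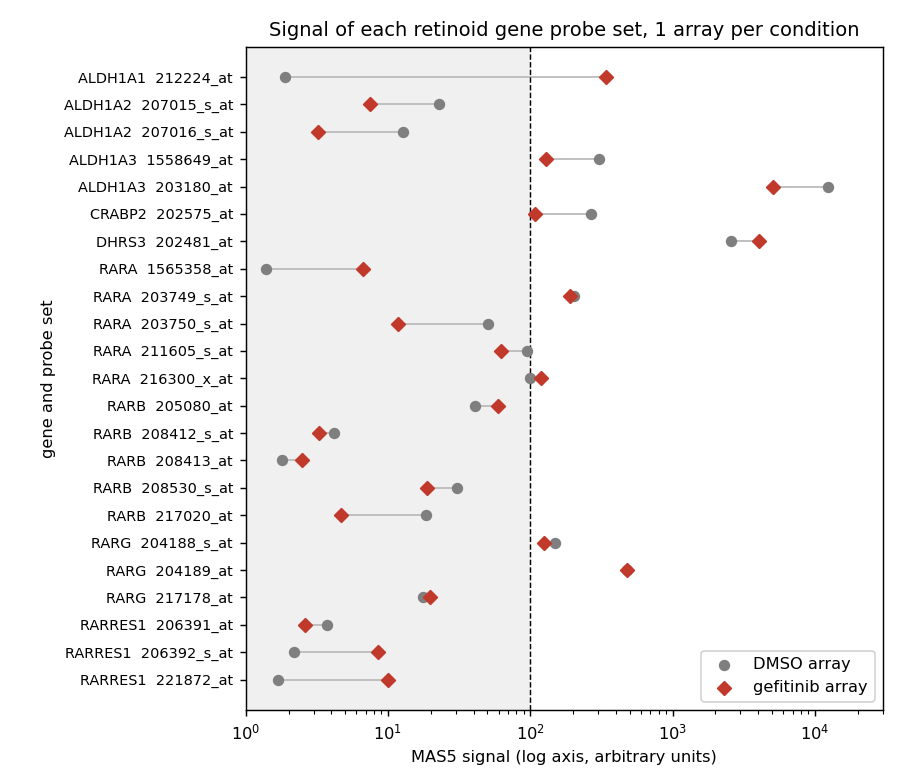
MAS5 signal (horizontal log axis, arbitrary units) of the 23 probe sets of the 9 retinoid genes (vertical axis) on the DMSO array (grey circles) and the gefitinib array (red diamonds), 1 array per condition. The shaded area lies under the floor of 100 (dashed line). ALDH1A1 crosses the floor from 1.9 to 339.0, both ALDH1A3 probe sets and the CRABP2 probe set shift to the left, and all 10 probe sets of ALDH1A2, RARB and RARRES1 lie at or below 59.6.

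The ALDH1A enzymes catalyze the last step of retinoic acid synthesis, and their 3 genes read differently on these arrays. ALDH1A1, also widely used as a marker of stem-like tumor cells, has a single probe set, 212224_at. It read 1.9 on the DMSO array and 339.0 on the gefitinib array, a log2 ratio of at least 1.76. Because the DMSO signal is a background level, the size of the bound is set by the floor: it was 2.76 on the log2 scale with a floor of 50 and 0.76 with a floor of 200, where it no longer reached 2-fold.

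ALDH1A3, the retinaldehyde dehydrogenase found in many epithelia, was well above the floor in both conditions. At its brightest probe set, 203180_at, the reading was 12350.3 on the DMSO array and 5054.1 on the gefitinib array, a log2 ratio of -1.29. At the second, 1558649_at, it was 303.7 and 128.2, a log2 ratio of -1.24, so that both probe sets were lower to a similar extent. Ratios at or below that of the brightest were found for 3.44% of measured genes. ALDH1A2, which supplies retinoic acid in many embryonic tissues, read 23.0 on the DMSO array and 7.5 on the gefitinib array at 207015_s_at and of 12.7 and 3.2 at 207016_s_at, all under the floor, and no direction was read from them.

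The 2 measured enzymes of this class, ALDH1A1 and ALDH1A3, also differ in the sequence around their start sites. The RefSeq promoter windows of GRCh38.p14, which run from 250 bases before the start to 50 bases after it, are shown for both genes to make this difference visible, 5′ to 3′ on the strand of the gene, with each CG dinucleotide in capitals. The ALDH1A1 window lies at chr9:72953004-72953303 on the minus strand and the ALDH1A3 window at chr15:100879581-100879880 on the plus strand.
ALDH1A1: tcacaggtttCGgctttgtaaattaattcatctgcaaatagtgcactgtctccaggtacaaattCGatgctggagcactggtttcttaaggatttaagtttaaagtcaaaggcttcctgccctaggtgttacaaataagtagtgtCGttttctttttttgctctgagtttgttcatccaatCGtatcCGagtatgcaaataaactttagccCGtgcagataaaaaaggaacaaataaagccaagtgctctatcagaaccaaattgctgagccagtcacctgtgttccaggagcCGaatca
ALDH1A3: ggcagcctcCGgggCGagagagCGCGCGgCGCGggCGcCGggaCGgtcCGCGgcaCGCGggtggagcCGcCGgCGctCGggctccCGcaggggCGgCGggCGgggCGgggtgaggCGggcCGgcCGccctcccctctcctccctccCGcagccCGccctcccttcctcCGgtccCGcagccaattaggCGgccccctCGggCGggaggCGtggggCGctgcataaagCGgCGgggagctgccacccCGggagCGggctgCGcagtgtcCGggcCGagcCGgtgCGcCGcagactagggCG

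The ALDH1A1 window held 7 CG dinucleotides at a GC content of 40.3%, and the ALDH1A3 window held 46 at 81.7%. Over 35116 RefSeq windows of 27305 genes, the medians were 14 CG dinucleotides and 58.7% GC. A GC content as low as that of ALDH1A1 or lower was found in 12.4% of windows, and one as high as that of ALDH1A3 or higher in 1.44%. As few CG dinucleotides as in ALDH1A1 or fewer were found in 39.3% of windows, and as many as in ALDH1A3 or more in 2.89%. The GC box GGGCGG, searched on both strands, occurred 6 times in the ALDH1A3 window and was not found in that of ALDH1A1, while 45.0% of all windows held at least 1. CRABP2, the other gene at least 2-fold lower, had 20 CG dinucleotides at 64.0% GC and no GC box. Of the members within 2-fold, RARG had 5 GC boxes in its window. The RARA windows had 1, 5 and 3, and the DHRS3 windows 0, 0 and 1. These are descriptions of the reference sequence, and no promoter activity was measured on the arrays.

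DHRS3 reduces retinaldehyde back to retinol and is itself known to be induced by retinoic acid. Its single probe set, 202481_at, read 2565.4 on the DMSO array and 4059.1 on the gefitinib array. The log2 ratio of 0.66 was under 2-fold (0.47 to 0.84 among the scalings) and was equalled or exceeded by 23.3% of measured genes. CRABP2 delivers retinoic acid to the receptors in the nucleus. At its single probe set, 202575_at, the reading was 267.4 on the DMSO array and 107.4 on the gefitinib array, a log2 ratio of -1.32. The gefitinib signal was near the floor, so with a floor of 200 the ratio became a bound of -0.42 on the log2 scale, which does not reach 2-fold.

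RARA and RARG, the 2 measured retinoic acid receptors, showed no difference of 2-fold at any measured probe set. RARG, the receptor class member known best from skin, read 475.7 on the DMSO array and 478.4 on the gefitinib array at 204189_at, a log2 ratio of 0.01. At 204188_s_at they were 150.0 and 124.8, a log2 ratio of -0.27. RARA, which is expressed in most tissues, had 203.0 and 190.6 at 203749_s_at, a log2 ratio of -0.09. At 216300_x_at the RARA signals were 99.9 and 119.6, higher by at least 1.20-fold. The sign for the brightest RARA and RARG probe sets changed with the scaling, from -0.31 to 0.09 for RARA and from -0.18 to 0.18 for RARG, so neither gene had a direction that could be read. The other 3 RARA probe sets and the other RARG probe set were below the floor on both arrays.

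RARB and RARRES1, both known to be induced by retinoic acid in many epithelial cells, were not measured. RARB had its highest signals at 205080_at, 41.2 with DMSO and 59.6 with gefitinib, and its other 4 probe sets were at 30.7 or below. RARRES1, a membrane protein gene that is often silenced in tumors, ran from 1.7 to 3.7 with DMSO and from 2.6 to 10.0 with gefitinib over its 3 probe sets. At these levels a difference between the arrays could not be detected, and a low signal does not show that the transcripts were absent.

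**Figure D2:**
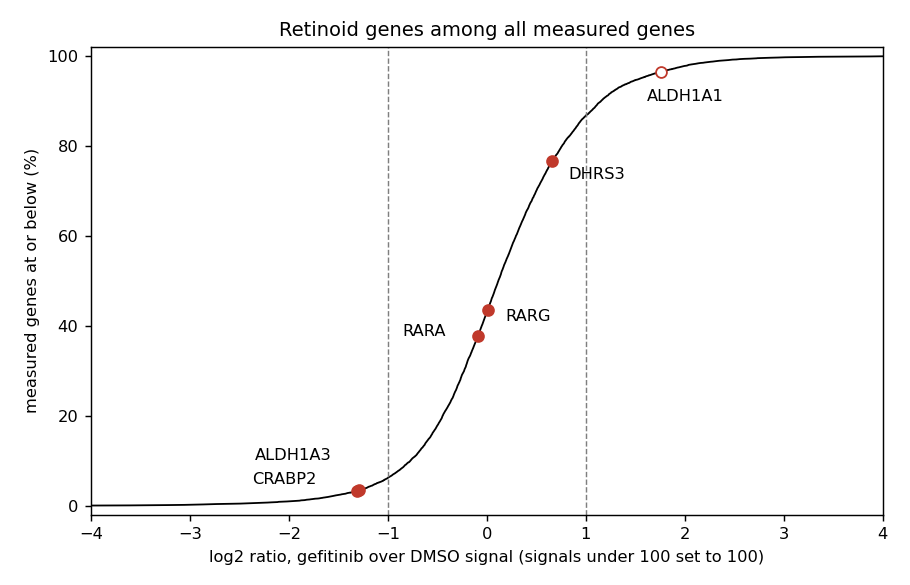
Percent of the 11223 measured genes at or below each log2 ratio of gefitinib over DMSO signal (black curve), with the 6 measured retinoid genes marked in red and 2-fold by dashed lines, 1 array per condition. ALDH1A1 is an open point because its ratio is a lower bound. CRABP2 and ALDH1A3 lie among the lowest 3.24% and 3.44% of genes, RARA and RARG near the middle, and ALDH1A1 is drawn at its bound of 1.76.

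RARB carries in one of its promoters a retinoic acid response element, the sequence to which RAR and RXR bind together. The element searched for was a DR5, a direct repeat of the half-site AGGTCA with G also allowed in place of its opening A and T in place of its last G, and with 5 bases of any kind between the repeats, on both strands. It was found in 31 of the 35116 windows, or 0.0883%. Of the 17 windows of the 9 members, 1 held it, that of RARB at chr3:25428013-25428312 on the plus strand. Of the 89 windows found for 57 of the 79 genes in the 8 lists described below, 1 held it, that of CYP26A1 at chr10:93073643-93073942 on the plus strand. Both windows are shown since they carry the same kind of element beside unlike readings on the arrays, with the DR5 in capitals.
RARB: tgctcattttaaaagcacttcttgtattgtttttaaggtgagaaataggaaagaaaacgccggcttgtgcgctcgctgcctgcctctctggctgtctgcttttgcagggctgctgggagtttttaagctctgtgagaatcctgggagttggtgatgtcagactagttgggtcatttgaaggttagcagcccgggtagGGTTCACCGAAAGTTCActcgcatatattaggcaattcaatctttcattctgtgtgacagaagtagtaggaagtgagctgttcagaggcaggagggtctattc
CYP26A1: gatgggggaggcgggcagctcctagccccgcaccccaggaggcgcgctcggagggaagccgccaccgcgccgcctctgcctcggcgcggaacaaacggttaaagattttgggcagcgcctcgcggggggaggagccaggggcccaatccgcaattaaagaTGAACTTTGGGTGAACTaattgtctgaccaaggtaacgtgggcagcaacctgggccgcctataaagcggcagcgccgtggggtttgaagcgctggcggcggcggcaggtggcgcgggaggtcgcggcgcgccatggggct

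In RARB the element reads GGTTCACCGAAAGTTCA and begins 53 bases upstream of the start. In CYP26A1 it lies on the opposite strand, where it reads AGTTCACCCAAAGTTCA, and its outer edge is 90 bases upstream of the start. RARB stayed under the floor on both arrays, whereas CYP26A1, which breaks retinoic acid down, read 58.1 on the DMSO array and 385.1 on the gefitinib array, at least 3.85-fold higher (log2 ratio of at least 1.95). The RefSeq table lists 4 windows for RARB, and which of its starts each probe set reads was not given. A match describes letters in the reference, and binding was not measured. The windows of DHRS3 and CRABP2 held no DR5 of this spelling within their 300 bases.

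The rest of the pathway and genes related to it were described with 79 genes in 8 lists. Of these, 65 had a probe set of their own and 43 were measured. Among the 43 are 13 other aldehyde dehydrogenases, which act mostly on other aldehydes, and 7 nuclear receptor coregulators. At least 2-fold higher with gefitinib were 16 of the 43 (37.2%), and 4 (9.30%) were at least 2-fold lower. Of all measured genes, 13.3% and 6.20% were. The lists were chosen with earlier results of these data known, so these shares are no independent comparison with all genes. Of the 16, 4 are other aldehyde dehydrogenases and 3 are coregulators. The 16 include STRA6, whose probe sets disagreed in direction, and without it 15 of 42 (35.7%) were that much higher. Averaging the measured probe sets of each gene left 13 at least 2-fold higher, beside 11.0% of all measured genes. Of the 43 genes, 7 (16.3%) reached the floor on the gefitinib array alone and so could only read higher, as did 6.62% of all measured genes. These were LRAT, ADH7, ALDH1B1, ALDH2, CYP26A1, PLAAT4 and ICAM1, of which the last 3 are among the 16, and none reached it on the DMSO array alone. Among the other scalings, between 14 and 18 of the 8-list genes were higher by 2-fold, and 4 were lower under each. Under these scalings, 9.42% to 17.9% of all measured genes were higher and 4.34% to 9.25% lower.

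Of the listed retinol dehydrogenases, 5 were measured. At least 2-fold higher were 2 (40%) and none was that much lower, beside 13.3% and 6.20% of all measured genes. RDH10, the retinol dehydrogenase known to be required for retinoic acid synthesis in the embryo, read 1126.7 on the DMSO array and 3300.1 on the gefitinib array at 226021_at, 2.93-fold higher. Its other measured probe sets were 2.66-fold and 1.72-fold higher. DHRS9, a second enzyme that oxidizes retinol, was 2.16-fold higher at 223952_x_at, from 197.9 to 428.0, and 2.69-fold and 2.68-fold higher at the others. With scaling to the spike-ins or lowess correction the value at 223952_x_at fell under 2-fold, to 0.91 on the log2 scale at the lowest. RDH11, which acts on retinol and retinaldehyde in both directions, had a log2 ratio of -0.65, and RDH13, a mitochondrial relative, had ratios of -0.36 and -0.32 at 2 probe sets but 0.36 at the third. ADH7, an alcohol dehydrogenase of upper digestive and airway epithelium, was at least 1.74-fold higher.

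STRA6, the membrane receptor for retinol, had 3 measured probe sets that disagreed. At 221701_s_at its reading was 248.9 on the DMSO array and 1065.8 on the gefitinib array, 4.28-fold higher. At 1569335_a_at it was 438.8 and 226.8, 1.93-fold lower, and at 1569334_at it was at least 1.54-fold lower. No single direction can therefore be given for STRA6. LRAT, which esterifies retinol for storage, was at least 1.56-fold higher, and DGAT1, which can also esterify it, was 1.41-fold higher.

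The other listed reductases and CYP26 enzymes, which remove retinaldehyde or retinoic acid, were split. AKR1B10, an efficient retinaldehyde reductase, read 411.5 on the DMSO array and 135.3 on the gefitinib array, 3.04-fold lower. AKR1C3, a relative with the same activity among several others, was 1.27-fold higher. CYP26B1, unlike CYP26A1, was 3.74-fold lower on the gefitinib array, where it read 107.2 against 401.0 on the DMSO array. Thus CYP26A1 and CYP26B1, each with a single measured probe set, differed in direction, as did ALDH1A1 and ALDH1A3. ALDH1A3 was lower at both of its measured probe sets. CYP26A1 and ALDH1A1 reached the floor on the gefitinib array alone and so could only read higher.

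**Figure D3:**
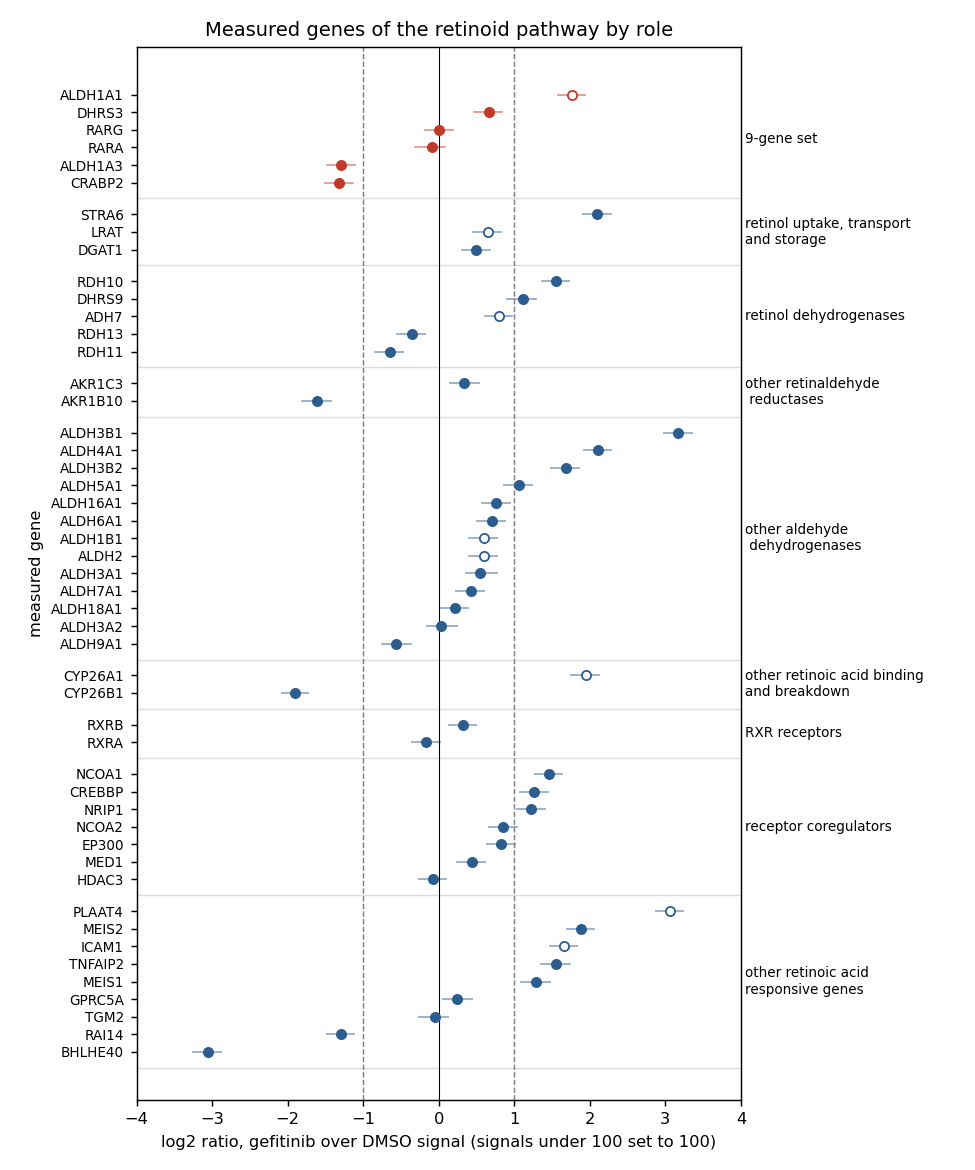
Log2 ratio, gefitinib over DMSO (horizontal axis, signals under 100 set to 100) at the brightest probe set of the 6 measured genes of the 9-gene set (red) and the 43 measured genes of the 8 other lists (blue), grouped by role, 1 array per condition. Open points are lower bounds, thin bars span the 5 other scalings tried and dashed lines mark 2-fold. ALDH1A1 lies at 1.76 and ALDH1A3 at -1.29, and CYP26A1 at 1.95 and CYP26B1 at -1.90.

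The other aldehyde dehydrogenases, relatives of the ALDH1A enzymes that act mostly on other aldehydes, were set beside them. Of 16 genes 13 were measured. At least 2-fold higher were 4 (30.8%) and none was at least 2-fold lower, beside 13.3% and 6.20% of all measured genes. Of the 13 ratios 12 were above 1, and the median log2 ratio of all measured genes was 0.12. The lowest of the 12, that of ALDH3A2, was equalled or exceeded by 54.9% of all measured genes. It changed sign with the scaling, to -0.16 on the log2 scale at the lowest. ALDH1B1 and ALDH2 reached the floor on the gefitinib array alone and so could only read higher. ALDH3B1, which oxidizes lipid aldehydes, had signals of 535.5 and 4826.9, 9.01-fold higher, and its second measured probe set was 9.22-fold higher. ALDH4A1, of proline breakdown, was 4.31-fold higher at its brightest probe set and at least 1.80-fold at the other. ALDH3B2 was 3.20-fold higher. ALDH5A1, of GABA breakdown, was 2.08-fold higher at its brightest probe set but 1.33-fold at the other. ALDH5A1 fell under 2-fold under some scalings, to 0.87 on the log2 scale at the lowest. None of the 13 had a ratio as low as ALDH1A3, the lowest being ALDH9A1 with a log2 ratio of -0.56.

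Of the RXR receptors, RXRA and RXRB were measured and RXRG was below the floor on both arrays. RXRB had a log2 ratio of 0.32 at its brightest probe set and -0.13 at the other measured one. RXRA had signals of 1196.0 and 1066.2 at 202426_s_at, a log2 ratio of -0.17, but 486.7 and 2026.4 at 202449_s_at, 4.16-fold higher, so its probe sets disagreed. All 7 nuclear receptor coregulators with a probe set of their own were measured. At least 2-fold higher were 3 (42.9%) and none was lower by that much, beside 13.3% and 6.20% of all measured genes. The coactivator NCOA1 was 2.75-fold higher, and its other 3 probe sets were from 2.01-fold to 2.66-fold higher. The acetyltransferase CREBBP was 2.40-fold higher at its brightest probe set, and at least 1.38-fold and 1.00-fold at its other measured ones. NRIP1, a ligand-dependent corepressor that is induced by retinoic acid, was 2.34-fold higher, and NCOA2 was 1.81-fold higher.

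Other genes known to respond to retinoic acid did not move together. Of 17 listed genes 9 were measured. At least 2-fold higher were 5 (55.6%) and at least 2-fold lower 2 (22.2%), beside 13.3% and 6.20% of all measured genes. PLAAT4, also named RARRES3, read 23.8 on the DMSO array and 834.0 on the gefitinib array, at least 8.34-fold higher. MEIS2, a homeodomain factor, was 3.69-fold higher and the adhesion molecule ICAM1 was at least 3.16-fold higher. BHLHE40, a basic helix-loop-helix repressor first isolated as a retinoic acid induced gene, was lower from 13272.9 to 1593.8, 8.33-fold, and 9.20-fold at its second probe set. Most of these genes respond to other signals as well, and retinoic acid itself was not tested in this experiment. PLAAT4 and CYP26A1 were thus at least 2-fold higher while CRABP2 was lower, DHRS3 was within 2-fold, and RARB and RARRES1 stayed under the floor.

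The arrays were checked for the labelled cell type and for RNA quality. All 7 epithelial markers, among them EPCAM and CDH1, were measured and within 2-fold, with summed signals of 144219 with DMSO and 121054 with gefitinib. No leukocyte marker of 4 was measured, 1 of 5 fibroblast markers was (COL1A1, 420.8 and 950.2), 1 of 2 red cell markers was (HBB, 110.7 and 57.8), and of 4 endothelial markers PECAM1 (128.4 and 78.0) and VWF (30.0 and 496.0) were. The part of these genes in the values above was not tested. For GAPDH, the 3′ to 5′ signal ratio was 0.95 on the DMSO array and 1.01 on the gefitinib array. For ACTB it was 1.19 and 1.36.

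**Figure D4:**
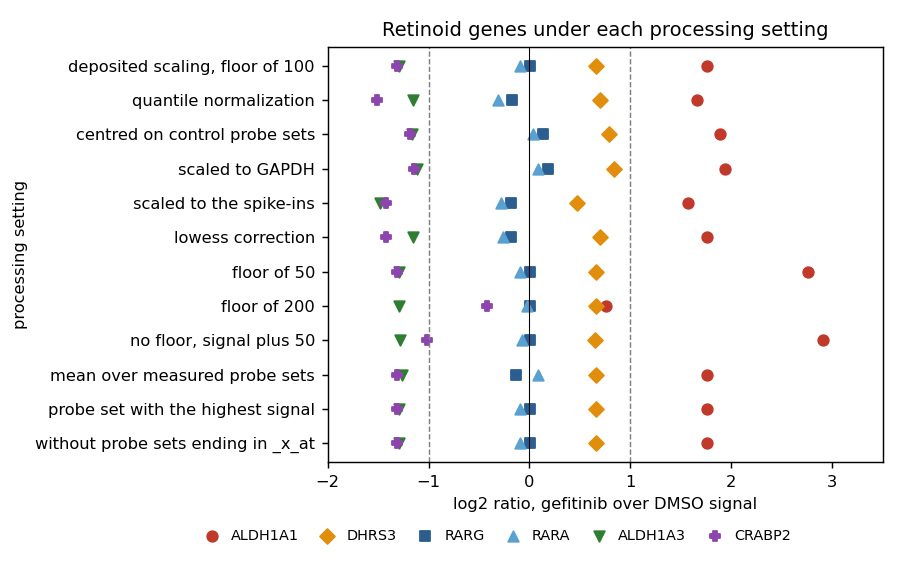
Log2 ratio, gefitinib over DMSO (horizontal axis) of the 6 measured retinoid genes under the deposited scaling and 11 other processing settings (vertical axis), 1 array per condition, with 2-fold marked by dashed lines. ALDH1A1, a lower bound in each setting with a floor, moves from 0.76 with a floor of 200 to 2.91 with the signal plus 50 and no floor, CRABP2 becomes a bound of -0.42 with a floor of 200, and ALDH1A3 stays between -1.48 and -1.11.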

How the data were processed

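RNA of H322c cells was measured on 1 array per condition. The authors deposited 1 table of MAS5 signal intensities on a linear scale, per the labels, with a column per array (MAS5 version not given in the sources used here). Each array had a 2% trimmed mean of 500, so both had been scaled to a common mean, which would remove or distort a shift of most transcripts one way. The platform annotation paired 41097 of 54675 probe sets with a single gene, and for 41043 of these the symbol was updated through the gene identifier to that of GRCh38.p14. Genes of the lists without such a probe set were not analysed here.

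A floor of 100 was applied, log2 ratios of gefitinib over DMSO were taken and a gene was represented by its brightest probe set (mean log2 signal of both arrays). Precision was limited by having 2 arrays. All members were named, as was every measured gene for uptake and storage, retinol dehydrogenases, reductases, binding and breakdown and RXR. Of other lists, up to 4 genes with the largest absolute log2 ratio were named, and for marker lists those that a count concerns. ALDH9A1 and SPRR3 were also named, after their values were seen. Members and lists were chosen with earlier results of these data known. No measure of likeness between genes can be computed from 2 arrays.

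Alternatives were quantile normalization, centring on 100 normalization-control probe sets, scaling to GAPDH or spike-ins, lowess (span 0.3), floors of 50 and 200, the signal plus 50 without a floor, other choices of probe set, and thresholds of 1.5-fold and 3-fold. Promoter windows were taken from RefSeq, which held all 9 members. Lowess was run with statsmodels 0.14.6, tables with pandas 2.3.3 and numpy 2.4.6, trimmed means with scipy 1.17.1 and plots with matplotlib 3.10.9, in Python 3.11.15.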

Additional observations from a re-analysis of the deposited data

How the results depend on the processing

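No paired analysis was possible because each condition had 1 array, and no array could be left out. With a floor of 200, 0 members were at least 2-fold higher and 1 was at least 2-fold lower, since ALDH1A1 and CRABP2 became bounds under 2-fold. At that floor, 11.3% of all measured genes were higher and 6.09% lower. With a threshold of 1.5-fold, 2 members were higher (ALDH1A1 and DHRS3), beside 26.4% of all measured genes. With a threshold of 3-fold, 0 members were lower, beside 2.05% of all measured genes. Of the genes of the 8 lists, 16 were higher at 2-fold, 24 at 1.5-fold and 8 at 3-fold. Of all measured genes, 13.3%, 26.4% and 4.78% were higher at these thresholds. Under the other alternatives the count at 2-fold was between 13 and 19. Among them was leaving out STRA6, which was chosen after seeing the data. The share of all measured genes moved too, from 9.42% with scaling to the spike-ins to 17.9% with scaling to GAPDH. Under the remaining 10 alternatives, the numbers of members higher and lower were 1 and 2. Beside them, 9.42% to 17.9% of all measured genes were higher and 4.34% to 9.25% lower. The median log2 ratio of the measured members ran from -0.24 to 0.14, so its sign depended on the setting. Of the genes of the 8 lists, 4 were lower under each alternative that kept the 2-fold threshold, beside 4.34% to 9.25% of all measured genes. At 1.5-fold 5 were lower and at 3-fold 3 were, beside 14.9% and 2.05% of all measured genes. With a floor of 50, 7 members were measured. At the floor of 100, signals near background left ALDH1A2, RARB and RARRES1 unmeasured and ALDH1A1 as a bound, and without replicates no difference between cultures can be judged.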

Other observations

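Genes of the airway differentiation that vitamin A is known to influence were set beside the retinoid genes. Of 14 squamous genes, 12 had a probe set of their own and 6 were measured. At least 2-fold higher were 2 (33.3%) and at least 2-fold lower 2 (33.3%), beside 13.3% and 6.20% of all measured genes. The 2 higher genes were keratins. KRT4, of stratified mucosa, read 78.9 on the DMSO array and 7730.9 on the gefitinib array, at least 77.3-fold higher. It reached the floor on the gefitinib array alone and so could only read higher. KRT13, the usual partner of KRT4, had 152.1 and 2292.7, 15.1-fold higher. The 2 lower genes were cornified envelope precursors, with SPRR1A 5.25-fold lower (4751.8 and 904.4) and SPRR1B 3.78-fold lower (12061.4 and 3193.9). SPRR3, counted as within 2-fold, had probe sets that disagreed. It was 1.02-fold higher at 218990_s_at, its brightest, but at least 12.5-fold lower at 232082_x_at (1251.2 and 91.7). The squamous list thus held genes at least 2-fold apart in both directions.

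Of 10 mucous and secretory genes, 3 were measured. SCGB1A1, the club cell secretory protein, was at least 4.60-fold higher (60.2 and 460.0), and SPDEF, a factor of mucous cell differentiation, was higher by at least 2.56-fold where it was brightest. FOXA2, a factor of airway and gut epithelium, was 7.52-fold lower (1184.4 and 157.6) and 6.17-fold lower at its second probe set. MUC5AC and MUC5B were below the floor on both arrays. Whether these genes depend on the retinoid genes was not tested.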
